A study of Mus musculus with 21 samples.

Results

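Late neutrophil granule genes are described here in RNA sequencing counts of mouse bone marrow c-kit+ cells. The 10 genes were chosen by name, with earlier results of these data known, from the deposited count table, which lists 54532 genes. They are S100a8, S100a9, Ngp, Ltf, Camp, Lcn2, Mmp8, Mmp9, Chil3 and Cd177. All 10 were among the 16262 genes that passed the filter on low counts. Each of the 11 libraries came from C57BL/6 bone marrow cells enriched on beads for CD117, the stem cell factor receptor c-kit. By genotype, 3 libraries were Asxl1-/-Jak2V617F, 3 Jak2V617F, 2 Asxl1-/- and 3 WT, and the labels name no treatment. Asxl1 encodes a chromatin regulator, and Jak2V617F is the activated form of a cytokine receptor kinase that is found in myeloproliferative neoplasms. The sources used here do not state whether the alleles act in all cells or through a Cre driver, nor the ages of the mice. Nor do the labels tie each replicate to its own animal, so the p-values reflect the spread between samples, and that spread may be technical. In Jak2V617F alone, Y-linked reads given below put libraries in both sexes, so those did not all come from the same animal.

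Neutrophils fill their granules in sequence as they mature. Promyelocytes make the primary granules, which carry myeloperoxidase and serine proteases. Myelocytes, metamyelocytes and later cells make the secondary granules with lactoferrin, lipocalin and cathelicidin, then the gelatinase granules, and they also store large amounts of the cytosolic S100a8 and S100a9 proteins. The granule genes are known targets of C/EBP family factors, above all C/EBP epsilon, and granulocyte colony stimulating factor drives the maturation.

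Total counts lay between 16198011 and 19196283 per library, and the 10 genes together took 0.218 to 0.599% of the counts in Jak2V617F and 2.56 to 5.76% in the other 8 libraries. Asxl1 lay at 89.04 to 100.4 CPM (counts scaled by library size times the TMM factor) in the 5 Asxl1-/- and Asxl1-/-Jak2V617F libraries and at 131.8 to 195.9 CPM in the other 6, so its order follows the labels. A point mutation cannot be read from Jak2 counts. Kit, which defines the gate, was at 218.8 to 338.3 CPM. Y-linked reads appeared in Jak2V617F 2 and both Asxl1-/- libraries and in no other library, so Asxl1-/- against WT and Asxl1-/-Jak2V617F against Asxl1-/- cannot be told apart from a difference of sex. Jak2V617F was the only genotype with libraries of both kinds, so a fitted term for sex rests on those 3 libraries. The Jak2V617F libraries also stood apart in the markers of other cell types. The 6 dendritic cell and MHC class II markers together summed to 1670 to 2380 CPM in Jak2V617F, 224 to 342 in Asxl1-/-Jak2V617F, 288 to 378 in Asxl1-/- and 180 to 320 in WT. Cd74 and H2-Ab1 had the largest means in Jak2V617F, 1226 ± 239.4 and 606.4 ± 87.83 CPM (SD, n = 3). By edgeR 5 of the 6 were higher in Jak2V617F than in WT. The exception was Siglech, named after its value was seen, with a log2 fold change of -1.30 ± 0.77 (SE, edgeR adjusted p = 0.187). The 8 erythroid markers summed to 2620 to 3470 CPM in Jak2V617F, 918 to 1800 in Asxl1-/-Jak2V617F, 955 to 1040 in Asxl1-/- and 613 to 873 in WT. Summed markers of 5 other lists, 6 genes each, were lower in Jak2V617F without overlap, as the granule genes were. Their sums in Jak2V617F and in the other 8 libraries were 234 to 333 and 1210 to 1640 CPM for monocytes, 36.1 to 40 and 185 to 627 CPM for eosinophils, and 60.6 to 80.9 and 142 to 264 CPM for mast cells and basophils. Megakaryocyte markers summed to 18.5 to 23.9 and 48.5 to 97.2 CPM, and stromal markers to 4.64 to 6.6 and 15.5 to 25.6 CPM. Some single markers in these 5 lists overlapped between genotypes. The sum of the 6 T and NK cell markers went the other way, at 34.4 to 56.2 and 7.95 to 27.9 CPM. Cd8a had the largest mean of them in Jak2V617F, 20.84 ± 11.52 CPM (SD, n = 3). It was the only 1 of the 6 that edgeR called higher in Jak2V617F than in WT. Sums of progenitor and B cell markers overlapped, and macrophage sums overlapped only with Asxl1-/-Jak2V617F. Macrophage sums were 33.3 to 177 CPM in Jak2V617F and 436 to 895 in WT. EdgeR called all 6 lower, against 29.2% of all genes. Kit alone had a mean of 289.3 CPM in Jak2V617F, where progenitor sums were 342 to 440. Of the 6 progenitor markers, edgeR called 3 lower in Jak2V617F than in WT and 1, Flt3, higher. The log2 fold changes of the 3 were -2.91 ± 0.17 for Cd34, -2.92 ± 0.24 for Hlf and -2.13 ± 0.32 for Mecom (SE). In the megakaryocyte list 1 marker, Gp1bb, was at 0 throughout Jak2V617F and throughout Asxl1-/-Jak2V617F, and in the other lists named here no marker was at 0 throughout a group. The part of these markers in the results below was not tested.

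The genes lie on 4 chromosomes. S100a8 (chr3:90668978-90670035, plus strand) and S100a9 (chr3:90692632-90695721, minus strand) are 22596 bases apart. Camp (chr9:109847379-109849617, minus strand), Ngp (chr9:110419747-110423012, plus strand) and Ltf (chr9:111019271-111042767, plus strand) follow each other with gaps of 570129 and 596258 bases. These are mm10 positions from the deposited table. The other genes are Mmp8 at chr9:7558456-7568485, Lcn2 at chr2:32384633-32388252, Mmp9 at chr2:164940780-164955850, Chil3 at chr3:106147554-106167564 and Cd177 at chr7:24743983-24760311. Promoters of 9 of the 10 genes were matched by symbol in a RefSeq table (GRCm38.p6, the mm10 assembly), with 250 bases before and 50 after the start site. Because the genes moved together, 4 promoters are shown, those of 3 genes with a C/EBP motif and that of Chil3, which had the smallest difference of the 10 between Asxl1-/-Jak2V617F and Jak2V617F. Each is read 5′ to 3′ on the strand of its gene and stops before the gene as the deposited table places it. The capitals mark matches to the C/EBP motif TTNNGCAA or to the STAT motif TTCNNNGAA.
Ngp, chr9:110419558-110419746, plus strand: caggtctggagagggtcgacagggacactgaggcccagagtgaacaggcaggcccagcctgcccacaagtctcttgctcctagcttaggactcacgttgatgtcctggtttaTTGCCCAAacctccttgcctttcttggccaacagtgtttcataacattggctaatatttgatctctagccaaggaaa
Ltf, chr9:111019042-111019270, plus strand: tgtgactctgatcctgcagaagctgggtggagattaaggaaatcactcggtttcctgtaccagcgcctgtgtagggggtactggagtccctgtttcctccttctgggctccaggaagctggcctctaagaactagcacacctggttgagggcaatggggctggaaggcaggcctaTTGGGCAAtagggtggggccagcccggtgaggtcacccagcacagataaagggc
S100a9, chr3:90695722-90695971, minus strand: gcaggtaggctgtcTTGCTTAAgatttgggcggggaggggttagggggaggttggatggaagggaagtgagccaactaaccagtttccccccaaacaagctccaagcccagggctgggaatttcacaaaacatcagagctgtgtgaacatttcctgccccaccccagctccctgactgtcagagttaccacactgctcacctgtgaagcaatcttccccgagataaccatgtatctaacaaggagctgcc
Chil3, chr3:106167565-106167814, minus strand: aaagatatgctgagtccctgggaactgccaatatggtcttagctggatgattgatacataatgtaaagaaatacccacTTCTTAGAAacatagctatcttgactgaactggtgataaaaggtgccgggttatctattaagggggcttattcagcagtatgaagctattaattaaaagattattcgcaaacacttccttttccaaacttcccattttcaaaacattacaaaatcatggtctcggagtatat

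Over the 300 bases and both strands, TTNNGCAA was found in 5 of the 9 promoters and in 10.8% of all 32851 promoters of that length. The matches began at position -236 in S100a9, -138 and -11 in Ngp, -75 in Ltf, -216 in Lcn2 and -19 in Mmp8, counted back from the RefSeq start site. The 8 letters TTGGGCAA stand in Ltf and, at -11, in Ngp, and the Ngp match at -138 is the same word on the other strand. The PU.1 core GAGGAA was found in 5 of 9 (28.3% of all promoters), and TTCNNNGAA in Chil3 alone among the 9 (8.3% of all). The 3 motifs as spelled share no match. A match is a run of letters and no evidence of binding, and the chromatin samples were not analysed here.

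Compared on a scale of CPM per kilobase of gene length (RPKM), the genes kept a common order. Mean RPKM fell from S100a9 and S100a8, the subunits of calprotectin, through the granule proteins Ngp and Camp, then Chil3, Ltf, Lcn2 and Cd177, to the proteases Mmp9 and Mmp8 in each of the 4 genotypes. In WT the means ran from 22770 ± 6573 RPKM for S100a9 to 90.22 ± 47.78 RPKM for Mmp8 (SD, n = 3), and in Jak2V617F from 1726 ± 785.8 to 8.855 ± 6.498 (SD, n = 3). The order held in every library for all neighbours but 3 pairs. Camp and Chil3, Chil3 and Ltf, and Mmp9 and Mmp8 each kept it in 10 of 11 libraries. Several neighbours overlapped beyond that: Chil3 and Ltf in Asxl1-/-Jak2V617F had means of 1161 ± 119.8 and 1121 ± 234.9 RPKM (SD, n = 3), and Mmp9 and Mmp8 in WT 117.1 ± 46.48 and 90.22 ± 47.78 RPKM.

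**Figure D1:**
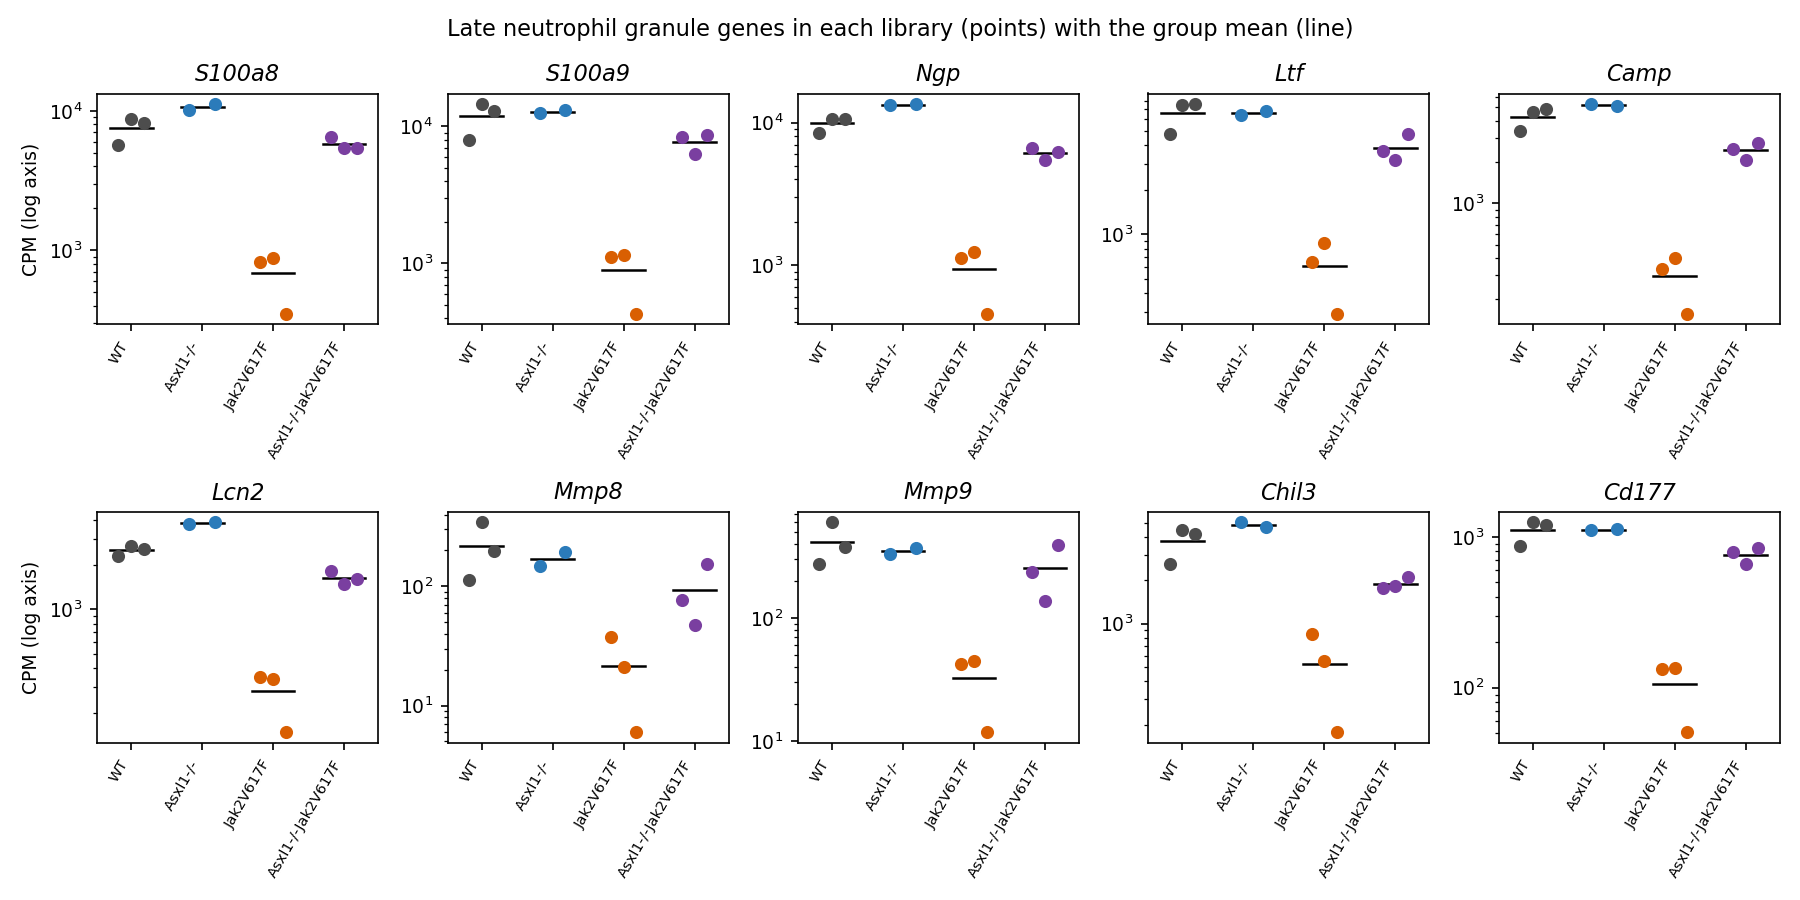
Level of each of the 10 genes in every library (y axis, CPM on a log scale) by genotype, with points for libraries and bars for the group mean. The Jak2V617F points lie below those of every other genotype in each panel, and Jak2V617F 3 is the lowest of the 11 libraries for all 10 genes.

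S100a8 and S100a9 form calprotectin, a calcium and zinc binding protein complex of the neutrophil cytosol. S100a8 stood at 5704, 8764 and 8224 CPM in WT, 10100 and 11210 CPM in Asxl1-/-, 821.2, 876.5 and 349.2 CPM in Jak2V617F, and 6540, 5457 and 5438 CPM in Asxl1-/-Jak2V617F. S100a9 stood at 8029, 14600 and 13040 CPM, 12610 and 13120 CPM, 1118, 1156 and 427.6 CPM, and 8367, 6262 and 8597 CPM in the same order of genotypes. Every Jak2V617F library was below every other library for both genes, with the third replicate lowest. S100a9 was 3.10 ± 0.38 (log2 fold change ± SE) higher in Asxl1-/-Jak2V617F than in Jak2V617F, which is 8.59-fold (edgeR quasi-likelihood test, Benjamini-Hochberg adjusted p = 0.000118). Against WT, Jak2V617F had -3.47 ± 0.33 for S100a8 (edgeR adjusted p = 1.41e-05) and -3.72 ± 0.39 for S100a9 (edgeR adjusted p = 3.18e-05), or 11.1- and 13.2-fold lower. Both Asxl1-/- libraries lay above all WT libraries for S100a8, yet the difference of 0.49 ± 0.33 did not pass (edgeR adjusted p = 0.304), and for S100a9 the 2 groups overlapped (0.11 ± 0.39, adjusted p = 0.861). These are bulk measurements, in which fewer cells of a type and less RNA per cell cannot be told apart.

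Ngp, neutrophilic granule protein, is a cystatin-like protein of the secondary granules. It read 8531, 10550 and 10630 CPM in WT, 13260 and 13520 CPM in Asxl1-/-, 1129, 1232 and 455.9 CPM in Jak2V617F, and 6688, 5443 and 6270 CPM in Asxl1-/-Jak2V617F. The 4 genotypes did not overlap for Ngp, with Asxl1-/- highest, then WT, then Asxl1-/-Jak2V617F and last Jak2V617F. It was 2.71 ± 0.31 higher in Asxl1-/-Jak2V617F than in Jak2V617F (edgeR adjusted p = 6.78e-05) and fell by 3.40 ± 0.32 in Jak2V617F against WT (edgeR adjusted p = 1.4e-05). The smaller steps did not pass: -0.69 ± 0.29 for Asxl1-/-Jak2V617F against WT (adjusted p = 0.132) and 0.43 ± 0.32 for Asxl1-/- against WT (adjusted p = 0.363).

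Camp encodes the cathelicidin precursor, whose cleaved peptide kills microbes. Camp was at 3349, 4645 and 4844 CPM in WT, 5294 and 5077 CPM in Asxl1-/-, 332, 404.2 and 157.2 CPM in Jak2V617F, and 2500, 2078 and 2758 CPM in Asxl1-/-Jak2V617F. Here too the 4 genotypes did not overlap and had the same order as for Ngp. Among the 10 genes, Camp had the largest distance from Jak2V617F to WT, 14.4-fold lower, and to Asxl1-/-, 17.4-fold lower (-4.12 ± 0.34, edgeR adjusted p = 8.84e-06). Asxl1-/-Jak2V617F and WT differed by -0.81 ± 0.29, with an unadjusted p of 0.0198 and an edgeR adjusted p of 0.0859.

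Ltf encodes lactoferrin, the iron-binding protein of the secondary granules. Ltf reached 4773, 7486 and 7615 CPM in WT, 6390 and 6806 CPM in Asxl1-/-, 652.3, 881 and 290.3 CPM in Jak2V617F, and 3666, 3178 and 4760 CPM in Asxl1-/-Jak2V617F. The Asxl1-/- libraries fell between the WT libraries, and the highest Asxl1-/-Jak2V617F library was just under the lowest WT library. It was 2.67 ± 0.37 higher in Asxl1-/-Jak2V617F than in Jak2V617F (edgeR adjusted p = 0.000345) and fell by 3.45 ± 0.39 in Jak2V617F against WT (edgeR adjusted p = 6.21e-05). The Asxl1-/- and WT means, 6598 ± 294.2 (n = 2) and 6625 ± 1605 CPM (SD, n = 3), differed by -0.01 ± 0.39 on the log2 scale.

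Lcn2 encodes lipocalin 2, which captures bacterial siderophores. Lcn2 was at 2279, 2690 and 2573 CPM in WT, 3772 and 3869 CPM in Asxl1-/-, 351.5, 340.4 and 147.3 CPM in Jak2V617F, and 1820, 1479 and 1594 CPM in Asxl1-/-Jak2V617F. No 2 genotypes overlapped, again in the order Asxl1-/-, WT, Asxl1-/-Jak2V617F, Jak2V617F. It was the gene that passed between Asxl1-/-Jak2V617F and Asxl1-/-, lower by 2.34-fold (-1.23 ± 0.29, edgeR adjusted p = 0.0372). That call was lost in 11 of 18 alternative settings, including leaving out any single library of Asxl1-/-Jak2V617F, Asxl1-/- or WT (adjusted p from 0.0561 to 0.201) and adding a term for sex (adjusted p = 0.558).

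Mmp8 encodes neutrophil collagenase and Mmp9 encodes gelatinase B, the enzyme that names the gelatinase granules. Mmp8 had 114.1, 343.3 and 199 CPM in WT, 146.9 and 195 CPM in Asxl1-/-, 37.47, 20.99 and 5.961 CPM in Jak2V617F, and 76.95, 47.14 and 154.5 CPM in Asxl1-/-Jak2V617F. Mmp9 had 271.7, 594.4 and 377.5 CPM, 329.5 and 368.2 CPM, 42.08, 44.83 and 11.82 CPM, and 236.8, 136.8 and 390.4 CPM in that order. Among the Asxl1-/-Jak2V617F libraries they varied most of the 10 genes, with a coefficient of variation of 59.7% for Mmp8 and 50.2% for Mmp9. The Jak2V617F libraries stayed below all others, while the other 3 genotypes overlapped. Mmp9 was 2.95 ± 0.59 higher in Asxl1-/-Jak2V617F than in Jak2V617F (edgeR adjusted p = 0.00409), and Mmp8 2.11 ± 0.72 higher (edgeR adjusted p = 0.0463). The Mmp8 call was lost in 11 of 18 settings, with adjusted p = 0.14 without Asxl1-/-Jak2V617F 3, 0.0797 without Asxl1-/-Jak2V617F 1, 0.11 without Jak2V617F 2 and 0.083 without Jak2V617F 3. It was also lost without either Asxl1-/- library (0.0715 and 0.0718) and without WT 3 (0.066).

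Chil3 encodes a chitinase-like lectin, and Cd177 a surface glycoprotein that is also held in secondary granules. Chil3 lay at 2604, 4424 and 4157 CPM in WT, 5019 and 4684 CPM in Asxl1-/-, 844.5, 548.7 and 176.7 CPM in Jak2V617F, and 1753, 1813 and 2118 CPM in Asxl1-/-Jak2V617F. Cd177 lay at 872.2, 1244 and 1206 CPM, 1103 and 1127 CPM, 133.8, 134.1 and 50.53 CPM, and 787.9, 657.8 and 837.9 CPM in that order. For Chil3 the 4 genotypes did not overlap, and for Cd177 the 2 Asxl1-/- libraries lay within the WT range. Chil3 had the smallest difference of the 10 between Asxl1-/-Jak2V617F and Jak2V617F, 1.86 ± 0.47 or 3.62-fold (edgeR adjusted p = 0.0112), and Cd177 had 2.84 ± 0.34 or 7.17-fold (edgeR adjusted p = 0.000142). Chil3 has near-identical relatives, and how reads shared with them were counted is not stated in the sources used here. Its relative Chil4 had 16 reads in all libraries together and was not tested.

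Loss of Asxl1 in Jak2V617F cells was the comparison named in the title of the series. All 10 genes were higher in Asxl1-/-Jak2V617F than in Jak2V617F by edgeR, where 24.5% of all genes tested were called higher and 19.8% lower. Their log2 fold changes ran from 1.86 to 3.10 with a median of 2.77, and the median of all genes was -0.01. In all 10 the 2 groups did not overlap, as was so in this direction for 28.4% of all genes. The count was 9 or 10 in every alternative setting, and Mmp8 was the gene that was lost. Of 21 other late neutrophil genes, 20 were higher with a median of 2.89, among them Trem3, a receptor of the TREM family (3.73 ± 0.23), Fcnb, a ficolin (3.31 ± 0.23), Anxa1, annexin A1 (3.31 ± 0.26), and Wfdc21 (3.25 ± 0.29). The exception was Adam8, a surface protease, at 0.97 ± 0.48 (edgeR adjusted p = 0.138), a gene named after its value was seen.

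**Figure D2:**
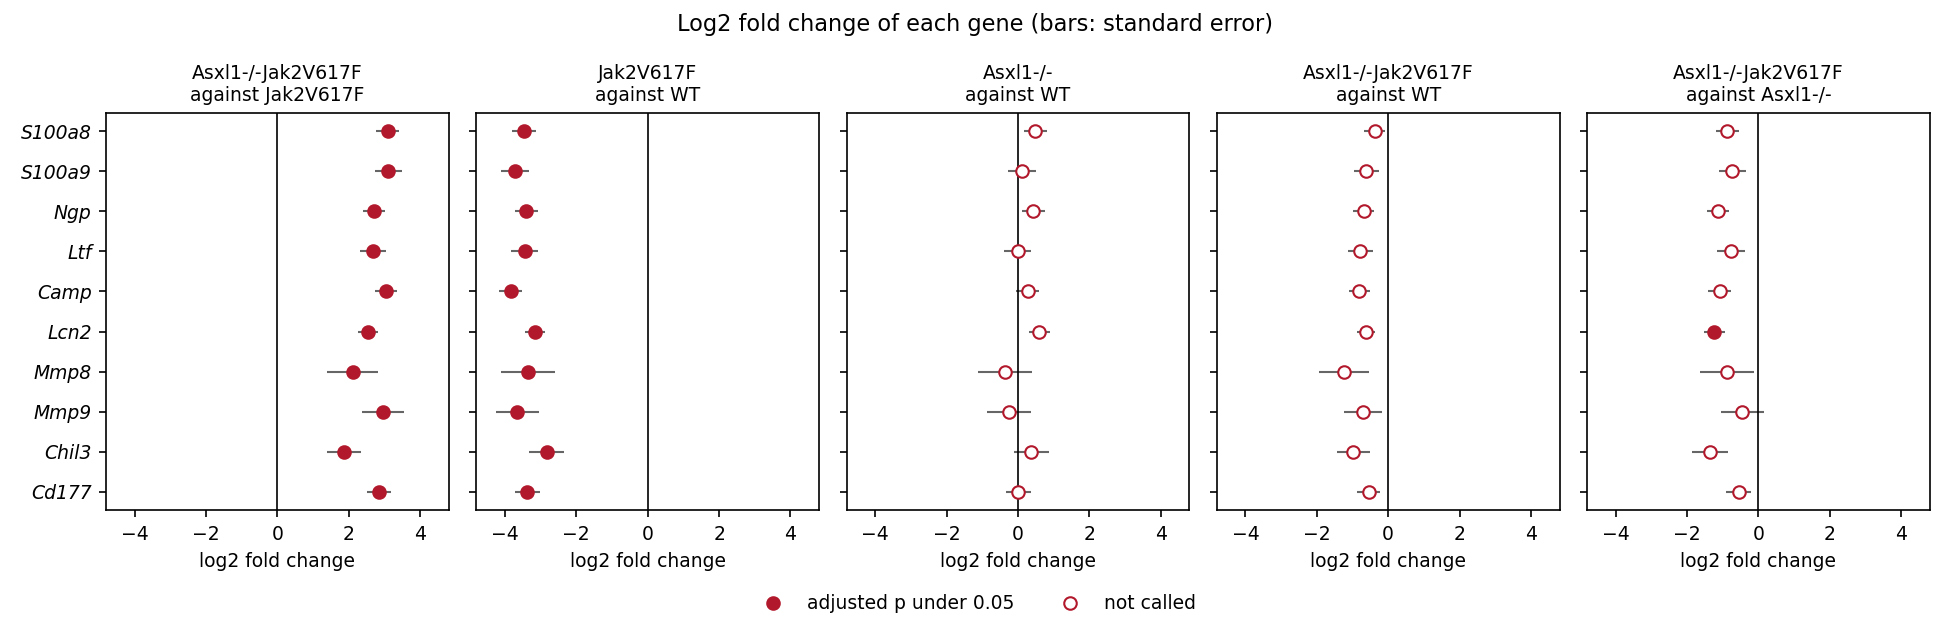
Log2 fold change (x axis) with its standard error for each of the 10 genes in 5 comparisons of genotypes, with Jak2V617F against Asxl1-/- and the interaction not drawn and filled points for adjusted p under 0.05. Estimates for Asxl1-/-Jak2V617F against Jak2V617F lie between 1.86 and 3.10, those for Jak2V617F against WT between -3.84 and -2.83, and those of the other 3 comparisons drawn between -1.36 and 0.60.

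The activated kinase alone went with the lowest levels. All 10 genes were lower in Jak2V617F than in WT, where 29.2% of all genes were called lower, and in all 10 the groups did not overlap, against 33.3% of all genes. Their median log2 fold change was -3.42, from -3.84 for Camp to -2.83 for Chil3, with a median of -0.05 over all genes. All 10 calls held in every alternative setting, including DESeq2, the sex term and each left-out library. All 10 were also lower in Jak2V617F than in Asxl1-/-, where 25.9% of genes were called lower and 35.6% did not overlap in that direction, with 8 to 10 called across settings. Mmp8 was not called there with the sex term (adjusted p = 0.118) or without Asxl1-/- 2 (adjusted p = 0.0702), nor Mmp9 with the sex term (adjusted p = 0.0528). These comparisons share the Jak2V617F libraries with the one before.

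Between Asxl1-/- and WT, none of the 10 genes passed, while edgeR called 11.3% of all genes higher and 11.2% lower. Their log2 differences ran from -0.36 for Mmp8 to 0.60 for Lcn2, with a median of 0.20 and standard errors of 0.29 to 0.76. None had an unadjusted p under 0.05, and DESeq2 called 0. In 5 genes, S100a8, Ngp, Camp, Lcn2 and Chil3, both Asxl1-/- libraries lay above all WT libraries, as did 28.7% of all genes. Without Jak2V617F 3, Ngp (0.43, adjusted p = 0.0471) and Lcn2 (0.60, adjusted p = 0.00779) passed. Fitted on its 2 groups alone, Lcn2 passed (0.59, adjusted p = 0.0228). With the sex term the estimates of S100a8, S100a9, Ngp, Camp and Cd177 turned to below 0, such as Camp from 0.28 to -0.45, and none passed.

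Mean levels in Asxl1-/-Jak2V617F lay between those of Jak2V617F and WT for all 10 genes. All 10 estimates against WT were below 0, from -1.24 for Mmp8 to -0.38 for S100a8 with a median of -0.70, but none passed, while 6.76% of all genes were called lower. Unadjusted p was under 0.05 for 3 genes, Ngp (0.04), Camp (0.0198) and Lcn2 (0.0384), and DESeq2 called 1, Camp. In 6 genes, Ngp, Ltf, Camp, Lcn2, Chil3 and Cd177, every Asxl1-/-Jak2V617F library lay under every WT library, as did 19.4% of all genes. Each of these 6 was called without Jak2V617F 3, with adjusted p from 0.00892 for Lcn2 to 0.0346 for Ltf. Fitted with WT alone, 4 were called, Ngp, Camp, Lcn2 and Chil3. A p that missed the threshold does not show that the genotypes were alike.

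Against Asxl1-/-, Asxl1-/-Jak2V617F libraries were lower in all 10 estimates (median -0.88), with 1 call by edgeR, Lcn2, against 2.22% of all genes called lower. In 8 genes the groups did not overlap, against 22.8% of all genes, and the 2 that overlapped were Mmp8 and Mmp9. The count of calls went from 0 with the sex term or no filter to 4 with DESeq2, 5 without Jak2V617F 3 and 7 when the compared groups were fitted alone. The 4 genes of DESeq2 were S100a8, Ngp, Camp and Lcn2, and it called 617 genes lower in all. With the sex term the estimates for Ltf and Mmp9 turned to above 0, at 0.13 and 0.28.

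Whether loss of Asxl1 acts differently in the Jak2V617F and WT backgrounds was tested by the interaction. All 10 estimates were above 0 and 8 passed, where 23.7% of all genes were called in that direction. They ranged from 1.94 ± 0.40 for Lcn2 to 3.20 ± 0.85 for Mmp9, while Mmp8 (2.47 ± 1.06, edgeR adjusted p = 0.099) and Chil3 (1.48 ± 0.69, edgeR adjusted p = 0.119) did not pass. Mmp9 lost its call without Asxl1-/- 1 (adjusted p = 0.0825), without Asxl1-/- 2 (0.0665), and with the sex term (0.0894). Chil3 gained one without Jak2V617F 1 (0.0312) or Jak2V617F 3 (0.0317). DESeq2 called 9, with Mmp8 among them (adjusted p = 0.0498), and 3784 genes in that direction in all. This contrast uses all 4 genotypes and so shares its libraries with those above. It also holds Asxl1-/- against WT, which cannot be told apart from a difference of sex. With the sex term 7 of the 10 genes passed.

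The 10 genes varied together across libraries, and each departed from their mean profile by a root mean square of 0.14 to 0.472 on the log2 scale. Ltf (0.14), Cd177 (0.147), Ngp (0.154) and S100a9 (0.163) followed it most closely. Mmp8 departed most, with 0.85 above the profile in Jak2V617F 1, 0.72 above in WT 2 and -0.81 in Asxl1-/-Jak2V617F 2. Chil3 stood 0.81 above in Jak2V617F 1 and at -0.48 in Asxl1-/-Jak2V617F 1. As a share of the summed RPKM of the 10, Chil3 made up 4.98 to 9.24% in Jak2V617F and 2.87 to 3.71% in Asxl1-/-Jak2V617F, while S100a9 made up 37.7 to 45.1% in all libraries. Within a genotype the libraries also moved as a block: WT 1 was the lowest WT library for all 10 genes, Jak2V617F 3 the lowest Jak2V617F library for all 10, and Asxl1-/-Jak2V617F 2 the lowest of its group for 8.

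**Figure D3:**
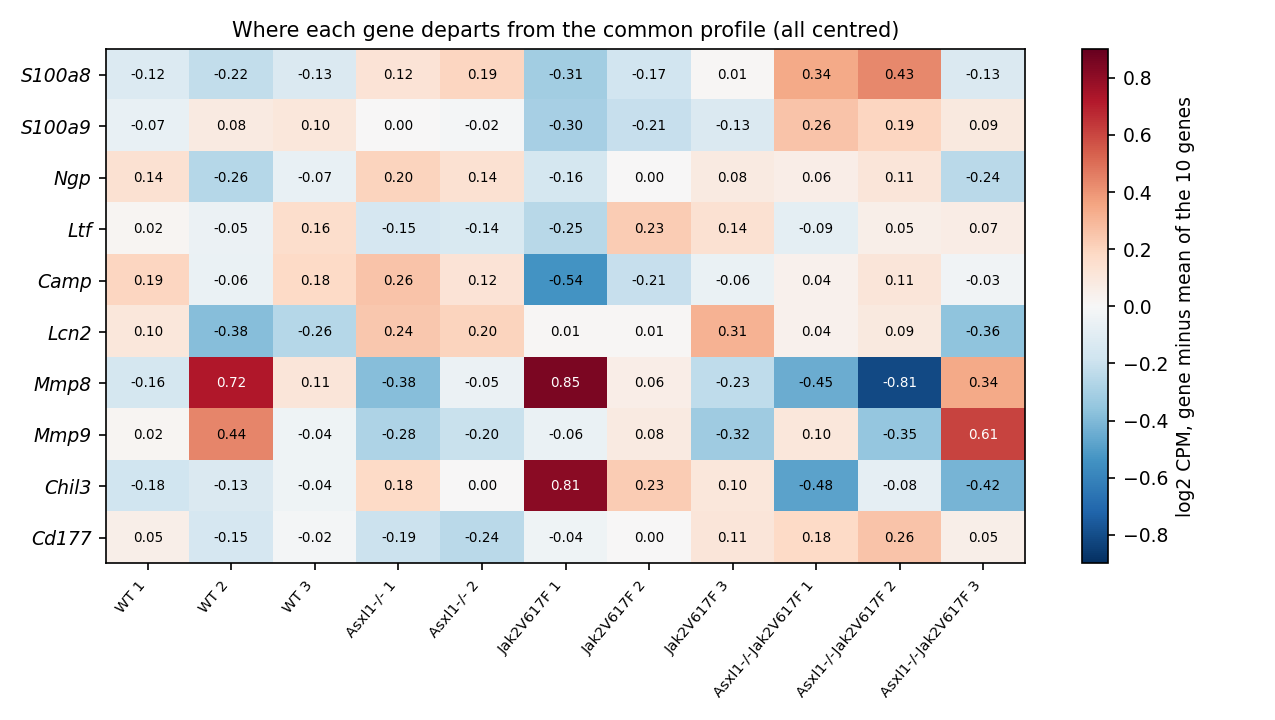
Departure of each gene (rows) from the mean profile of the 10 genes in each library (columns), in log2 units, with the value written in each cell. Mmp8 and Chil3 carry the largest departures, above all 0.85 and 0.81 in Jak2V617F 1.

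The 8 primary granule genes, made earlier in maturation, moved in the same direction. All 8 were higher in Asxl1-/-Jak2V617F than in Jak2V617F, where 24.5% of all genes were called higher. Their median was 4.31, against 2.77 for the late genes. Mpo, myeloperoxidase, had 4.26 ± 0.28 and Elane, neutrophil elastase, 4.28 ± 0.29, while Ctsc, which activates granule serine proteases, had 1.11 ± 0.19. Against WT, 1 primary granule gene passed in Asxl1-/-Jak2V617F, the serine protease Prss57 (0.69 ± 0.20, edgeR adjusted p = 0.0434), where 8.3% of all genes were called higher. DESeq2 called 5 of the 8 higher, and 6 had an unadjusted p under 0.05 by edgeR. The median of the 8 was 0.70, against -0.70 for the late genes. Summed counts of the late genes over those of the primary genes gave ratios of 1.5, 1.32 and 2.83 in Asxl1-/-Jak2V617F, 4.21, 7.49 and 2.59 in Jak2V617F, 3.59 and 3.95 in Asxl1-/- and 2.89, 4.64 and 5.18 in WT. Asxl1-/-Jak2V617F 1 and 2 were below all other libraries, and Asxl1-/-Jak2V617F 3 lay within the Jak2V617F range and just under the lowest WT library. On the log2 scale the ratio was 0.83 ± 0.59 in Asxl1-/-Jak2V617F, 2.12 ± 0.77 in Jak2V617F (SD, n = 3 each), 1.91 ± 0.10 in Asxl1-/- (n = 2) and 2.04 ± 0.45 in WT (n = 3). No p is given for this ratio because the genes were chosen with results known. The p-values of single genes do not allow for that choice.

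**Figure D4:**
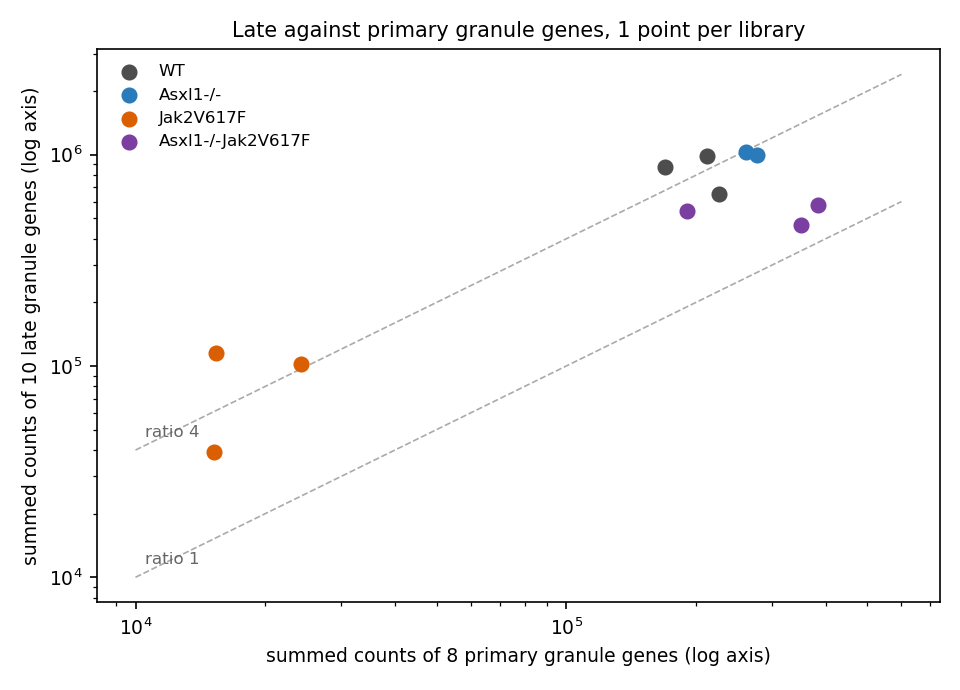
Summed counts of the 10 late granule genes (y axis) against those of the 8 primary granule genes (x axis), both on log scales. Each point is a library, coloured by genotype, and dashed lines mark constant ratios. The log2 ratio has a mean of 0.83 in Asxl1-/-Jak2V617F, and its means in the other 3 genotypes lie between 1.91 and 2.12.

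Regulators of granule genes were lower in Jak2V617F as well. All 9 regulators tested were higher in Asxl1-/-Jak2V617F than in Jak2V617F, where 24.5% of all genes were called higher. Cebpe, the C/EBP factor of terminal granulopoiesis, was at 184.6 ± 28.57 CPM in Asxl1-/-Jak2V617F, 16.86 ± 7.55 in Jak2V617F and 224.6 ± 45.09 in WT (SD, n = 3 each), with 3.45 ± 0.32 between the first 2. Gfi1, a repressor required for neutrophils, had 3.89 ± 0.29, Cebpa 3.26 ± 0.27, and Csf3r, the receptor of granulocyte colony stimulating factor, 2.92 ± 0.27. Spi1, which encodes PU.1, had 2.26 ± 0.16, Stat3 1.19 ± 0.14 and Runx1 1.0 ± 0.11. The ligand gene Csf3 had 3 reads in all libraries together and was not tested. Between Asxl1-/-Jak2V617F and WT 1 regulator passed, Cebpb (0.78 ± 0.22, edgeR adjusted p = 0.0418), where 8.3% of all genes were called higher.

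Receptors and partners of the granule proteins were measured too. Of 12 in the list 10 were tested, and 9 were higher in Asxl1-/-Jak2V617F than in Jak2V617F, against 24.5% of all genes. They included Tlr4, a receptor of calprotectin (2.71 ± 0.35), Fpr2, the formyl peptide receptor that cathelicidin binds (2.54 ± 0.53), Itgam, the integrin subunit CD11b (2.88 ± 0.35), and Pecam1, which CD177 binds (1.57 ± 0.15). Slc22a17, a lipocalin 2 receptor, did not pass there (-0.62 ± 0.38, edgeR adjusted p = 0.204) and was lower in Asxl1-/-Jak2V617F than in WT (-1.88 ± 0.37, edgeR adjusted p = 0.0116). Its levels were low, at 0.7547 ± 0.2996 against 2.807 ± 0.4838 CPM (SD, n = 3). Jak2V617F alone was also below WT for this gene (-1.26 ± 0.35, edgeR adjusted p = 0.00949). Timp2, an inhibitor of metalloproteinases, was lower in Asxl1-/-Jak2V617F than in WT as well (-1.53 ± 0.29, edgeR adjusted p = 0.0114), at 10.34 ± 4.089 against 29.77 ± 4.068 CPM (SD, n = 3). It was lower still in Jak2V617F alone (-2.79 ± 0.30 against WT, edgeR adjusted p = 2.48e-05).

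Genes outside the 10 with the most similar profile over the 11 libraries were named by the smallest root mean square distance in centred log2 CPM to the mean profile, among 10985 protein-coding genes with a mean CPM of 2 or more. They were Ankrd22 (0.09), Itgb2l (0.17), Lyz2 (0.18), Ppp1r42 (0.18), Chil1 (0.19), Clec4a2 (0.19), Alox5 (0.22) and Mgst1 (0.23), against 0.14 to 0.472 for the 10 genes themselves. The primary granule genes had distances of 0.73 to 1.14. Lyz2, a lysozyme gene with a near-identical neighbour, reached 5470 CPM in Asxl1-/- and 347 CPM in Jak2V617F.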

How the data were processed

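The 11 RNA sequencing libraries came as raw counts per gene, deposited by the authors as 1 table with gene names, mm10 positions and gene lengths, per the file headers. Per the submitters' processing notes, which give no roles, the tools were featureCounts 1.5.0-p3, HISAT2 2.0.5, Bowtie2 2.2.9, DESeq2 1.16.1, deepTools and MACS 1.4.253. The sources used here do not state the strand setting, the annotation release or how multiply mapping reads were handled, so counts of genes with near-identical or overlapping neighbours are uncertain. Each column was tied to its sample by its name. Chi-square over genes between replicates was 7.75 to 33.1 per degree of freedom, above sampling noise, and every replicate counted as a sample.

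Genes were filtered with filterByExpr by group, scaled by TMM and tested with the quasi-likelihood test of edgeR 4.0.16 (R 4.3.3, limma 3.58.1) in 1 fit of all 11 libraries, with Benjamini-Hochberg adjustment over 16262 genes and a threshold of 0.05. The standard error is the absolute log2 fold change over the square root of F. The test was also run on simulated counts in which few genes changed, in Jak2V617F alone. It was not checked under a shift as broad as the 8706 genes called in Jak2V617F against WT. RPKM used the gene lengths of the table. The interaction is the difference between Asxl1-/-Jak2V617F and Jak2V617F minus that between Asxl1-/- and WT. Profiles used log2 CPM with a prior count of 2. The alternatives tried were median-of-ratios scaling, DESeq2 1.42.0, a fit of the compared groups alone, no filter or one at a CPM of 1 in 3 libraries, the replicate number as a block, a term for sex read from Xist and Y-linked counts, and each library left out, which makes 18 settings.

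The 10 genes and the lists were chosen with earlier results of these data known. Named beyond the 10 were any regulator, partner or primary granule gene, up to 4 genes of each other list by smallest adjusted p, and the 8 genes of most similar profile.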

Additional observations from a re-analysis of the deposited data

Results flagged for a closer look

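For 8 of the 10 genes the interaction term of the edgeR fit passed, where 23.7% of all genes were called in that direction. This term sets the effect of Asxl1 loss in the Jak2V617F background against that in the WT background. It holds Asxl1-/- against WT, which cannot be told apart from a difference of sex. The difference of the 2 log2 effects was 2.60 ± 0.46 (SE) for S100a8 (adjusted p = 0.00175), 2.99 ± 0.54 for S100a9 (adjusted p = 0.00218) and 2.27 ± 0.45 for Ngp (adjusted p = 0.00314). For the iron-binding and antimicrobial genes it was 2.68 ± 0.55 for Ltf (adjusted p = 0.00427), 2.76 ± 0.45 for Camp (adjusted p = 0.00121) and 1.94 ± 0.40 for Lcn2 (adjusted p = 0.00395). Cd177 had 2.83 ± 0.49 (adjusted p = 0.00205) and Mmp9 3.20 ± 0.85 (adjusted p = 0.0184). The Mmp9 call was lost in 4 of 17 alternative settings. All 8 rest on the same 11 libraries, including the Jak2V617F libraries, which stood apart.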

How the results depend on the processing

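Over 1250 alternative values of the 10 genes' log2 fold changes, 29 lost their call, 30 gained one and 0 called values changed sign. The count of 10 in Jak2V617F against WT held in all 18 settings. Of the 10 genes, those called in Asxl1-/- against WT numbered 0, but 1 with the compared groups alone and 0 to 2 with each library left out. In Asxl1-/-Jak2V617F against WT they numbered 0, but 1 by DESeq2, 4 with the groups alone and 0 to 6 with a library left out, the highest without Jak2V617F 3. In Asxl1-/-Jak2V617F against Asxl1-/- the 1 call became 4 by DESeq2, 7 with the groups alone, 0 without a filter or with the sex term, and 0 to 5 with a library left out. Over all genes, the 3664 calls of Asxl1-/- against WT became 502 with the sex term and 288 (without Asxl1-/- 1) to 4376 with a library left out. The 2449 of Asxl1-/-Jak2V617F against WT became 531 (without WT 2) to 3493, and the 6764 of the interaction 3079 with the sex term and 4483 (without Asxl1-/- 1) to 7016. The 899 of Asxl1-/-Jak2V617F against Asxl1-/- became 1466 by DESeq2, 52 with the sex term and 86 (without Asxl1-/- 2) to 952. The causes were not tested. With the replicate block, 585 genes and 0 of the 10 were called in that comparison, and Mmp9 had an interaction adjusted p of 0.0532. Deviations of same-numbered libraries correlated at -0.2 to 0.17, so the numbers were not taken as pairs. In groups of 3, 1 or 2 of 6 libraries correlated best with their own number. The median of all genes differed by at most 0.05 between TMM and median-of-ratios scaling. The lowest single value among the 10 genes was 5.961 CPM for Mmp8 in Jak2V617F 3.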

Other observations

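Relatives of the granule genes outside the neutrophil lists were mostly higher in Asxl1-/-Jak2V617F than in Jak2V617F as well. Of 12 tested, 10 were higher and 2 lower by edgeR, where 24.5% of all genes were called higher and 19.8% lower, so the share of lower genes was near that of all genes. The metalloproteinase gene Mmp19 had 3.65 ± 0.29, Chit1, a true chitinase, 3.77 ± 0.32, S100a1 2.21 ± 0.20 and S100a13 1.72 ± 0.17 (log2 fold change ± SE). The 2 lower genes, named after their values were seen, were both metalloproteinases. Mmp14 was at 51.46 ± 17.5 CPM in Jak2V617F against 25.44 ± 3.196 CPM with Asxl1 lost as well (SD, n = 3), and Mmp12, a macrophage elastase, had 0 reads in the 3 Asxl1-/-Jak2V617F libraries and 1.968 ± 0.6833 CPM in Jak2V617F.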
